A study of Xenopus laevis with 4 samples.

Results

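Sites of 5-methylcytosine (m5C) were examined in the mRNAs of protein and phosphoinositide phosphatases and of their regulatory subunits in Xenopus laevis embryos. The genes were chosen by name. The beginnings were those of phosphatase gene families (ppp, ppm, pdp, ptp, dusp, ssh, eya, acp, mtm, inpp and the like) and liprins (ppfi). Liprins are scaffold proteins, and some of them are bound by receptor phosphatases. At stage 0 the choice by name gave 259 sites in 103 genes, out of 16233 sites in 7140 genes. This is 1.60% of the sites and 1.44% of the genes. At stage 25 none of the 45 listed sites in 41 genes lay in such a gene. The names also take in proteins that do not remove phosphate themselves: 97 of the sites, in 42 genes, lay in regulatory subunits or scaffolds and 162, in 61 genes, in the other genes, most of them catalytic.

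The study treated polyadenylated RNA with bisulfite, which turns unmethylated cytosine into a base read as T and leaves m5C to be read as C. The m5C level of a site is the share of C reads among its C and T reads. Wild-type X. laevis were used, with RNA from pools of about 200 embryos per stage and 2 libraries at stage 0 and 2 at stage 25, and no allele or treatment is labelled in either group. Both stage 25 libraries have titles that begin with XT although labelled as X. laevis, each list gives a single merged value for a site, and the replicates are called technical in one place and biological in another, so no spread between replicates can be given. The lists hold no expression values, so the labelled tissue, whole early embryo, could not be checked against marker genes. The Wilson intervals below (95%) cover the counting error of the reads only, since the reads carry no molecular identifiers. Both lists hold only cytosines with at least 20 reads and a level of at least 10%, and a cytosine that is not listed may be unmethylated, under these minimums or not covered.

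Phosphatases remove the phosphate that kinases add, from serine and threonine, from tyrosine, or from the inositol ring of membrane lipids. The catalytic subunits of protein phosphatases 1 and 2A (PP1 and PP2A) are few and act on many substrates, and their regulatory subunits choose the place and the target. The egg and early embryo contain mRNAs made by the mother, and the early cell cycles turn on the balance of the kinase Cdk1 and the phosphatases that oppose it, PP2A with its B55 subunits above all. m5C in mRNA is placed by the methyltransferases NSUN2 and NSUN6. X. laevis carries a long (L) and a short (S) copy of many genes from an ancient joining of a pair of genomes, and the gene names end in .L or .S accordingly.

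The median level of the 259 phosphatase sites was 23.7% (interquartile range 14.4 to 42.4%, lowest 10%, highest 96.3%), beside 21.1% over all 16233 sites (13.9 to 37.5%). A level of at least 50% was found at 47 of the 259 sites, or 18.1%, where 16.3% of all listed sites reached it. A level under 20% was found at 106 sites, or 40.9%, where the figure over all sites was 47.2%. The first of these shares lay near that of the whole list. An interval over the sites for this share (13.9 to 23.3%) treats them as independent, though many lie in the same gene. It serves only as the yardstick for the share when it is recomputed under the alternatives. Sites are not replicates of a condition, and no test was made over them. The coverage of the phosphatase sites ran from 27 to 5107 reads with a median of 138, close to the 146 reads over all sites.

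**Figure D1:**
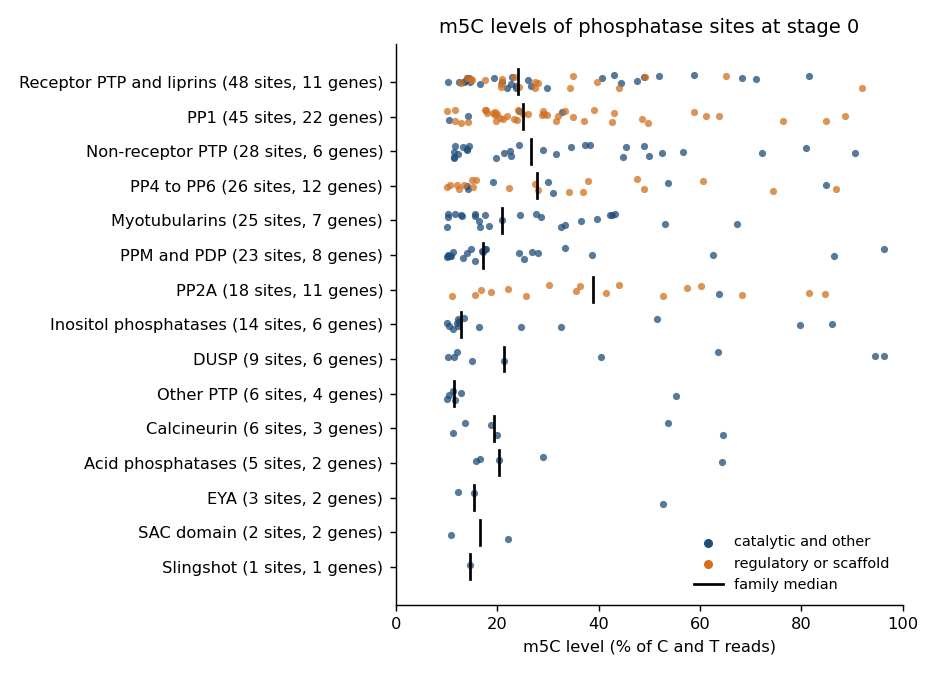
Level of each of the 259 phosphatase sites at stage 0 (percent of C and T reads), by family, with 1 point per site and the family median as a black line; points are spread vertically only to separate them. Sites of regulatory subunits and scaffolds are drawn in orange, the others in blue. The median is 38.9% for PP2A, 25.0% for PP1 and 13.0% for the inositol phosphatases, and every family of more than 2 sites has a site above 50%.

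The sites of regulatory and scaffold proteins lay higher than those of the remaining, mostly catalytic genes. Their median was 27.5% (n = 97) and 29 of them, or 29.9%, were under 20%. The other genes had a median of 21.1% (n = 162), and 77 of their sites, or 47.5%, were under 20%. Over all listed sites the median was 21.1%, with 47.2% under 20%. High levels were about as frequent in both, with 17.5% and 18.5% of the sites at 50% or more, beside 16.3% of all listed sites. The order of the medians differed between phosphatases. Regulatory sites had the higher median in PP1 (26.1%, n = 41, against 19.3%, n = 4) and PP6 (27.4%, n = 3, against 19.2%, n = 3). In PP4 the catalytic sites had it (30.5%, n = 4, against 25.2%, n = 16). The only catalytic PP2A site, at 63.7%, lay above the medians of the PP2A scaffold and regulatory groups (28.9 to 57.4%). The median coverage was 226 reads for the regulatory and scaffold proteins and 112 reads for the others, and its part in the difference was not tested.

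How many genes of each family carried a site was counted against the gene names of RefSeq. Of 294 protein-coding genes whose RefSeq names end in .L or .S and fit the phosphatase names, 94 (32.0%) had a stage 0 site, beside 23.0% of all 22203 such genes. The share was 40.4% for regulatory and scaffold proteins (40 of 99) and 27.7% for the others (54 of 195). Whether a gene is listed depends on how much of its mRNA was in the embryo, which was not measured here, so that the part of expression in these shares was not tested. A further 9 genes with sites bear names that this set of RefSeq names does not have and stayed out of the count. Among them were ppp6c.L, listed on chromosome 8S, and ppm1d, listed on 2S. The RefSeq genes ppp6c.S and ppm1d.S were counted as without a site. A share counted by name may therefore be too low.

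The PP4, PP5 and PP6 group had sites in 11 of 22 named genes and PP2A in 11 of 23. Under the names of the lists the first group had 12 genes with sites. The share over all named genes was 23.0%. Below it were the dual-specificity phosphatases (6 of 34, or 17.6%). The non-receptor tyrosine phosphatases (5 of 24, or 20.8%) lay near it. The receptor tyrosine phosphatases without the liprins had 4 of 24 by RefSeq name. Under the names of the lists 7 of their genes had sites, so this group cannot be placed above or below the share over all genes. All 4 liprin genes had sites. No site was listed in the 4 genes of phlpp1 and phlpp2, which act on the kinase Akt, or in the 2 ppef genes. These groups are too small to set against the share over all genes.

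**Figure D2:**
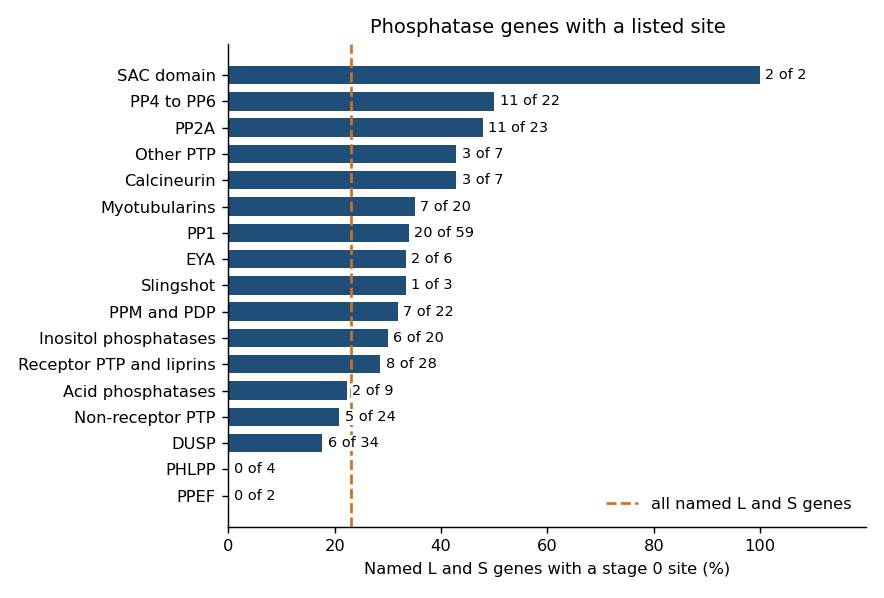
Share of the genes with RefSeq names ending in .L or .S that had at least 1 stage 0 site, in percent, for the phosphatase families shown, with the counts beside each bar. The dashed line is the share over all 22203 such genes, 23.0%. The PP4 to PP6 bar reaches 50% and the dual-specificity bar 17.6%, and PHLPP and PPEF are at 0. Genes were matched by exact name, so a gene named otherwise in RefSeq can count as without a site.

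PP1 is the phosphatase of glycogen metabolism, muscle myosin and mitotic exit, and it had 45 sites in 22 genes. Its catalytic subunits had 4 sites at 272 to 4227 reads, with levels between 10.4 and 32.7%. The site of ppp1ca.L with the most reads was at 10.4% (440 of 4227 reads, interval 9.52 to 11.4%), and a second site of this gene, 1099 nt further 3′, was at 32.7% (227 of 694). The only site of ppp1cc.S was at 14.3% (548 of 3824, 13.3 to 15.5%) and that of ppp1cb.S at 24.3% (66 of 272, 19.6 to 29.7%). None of the 4 catalytic PP1 sites reached 50%, a level found at 16.3% of all listed sites, and 4 sites are too few to compare. The counting intervals of the first and second ppp1ca.L sites did not overlap.

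The regulatory subunits of PP1 had 41 sites in 19 genes, with a median of 26.1%. Of the 41, 6 were at 50% or more, where 16.3% of all listed sites were. The highest level was in ppp1r13l.L, which encodes iASPP, an inhibitor of p53: 88.6% (382 of 431 reads, 85.3 to 91.3%) at position 49552305 of chromosome 8L. The other 4 sites of this gene, all within 2885 nt, were at 10.2, 19.6, 31.6 and 61.2%, and the gene held both the lowest and the highest site of the family. Ppp1r26.L reached 84.9% (45 of 53 reads, 72.9 to 92.1%), and ppp1r9a.S, the actin-binding neurabin, had a single site at 76.4% (55 of 72, 65.4 to 84.7%).

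The subunits that direct PP1 to glycogen had well-covered sites. Ppp1r3c.2.L held the deepest site of all phosphatases, at position 123243210 of chromosome 3L, with 17.7% (903 of 5107 reads, 16.7 to 18.8%). Its other sites were at 28.9% (423 of 1464) and 49.8% (257 of 516). The single site of ppp1r3b.L was at 63.8% (155 of 243). The myosin-targeting subunits, which bring PP1 to myosin light chain, had 29.1 and 43.1% in ppp1r12a.L, 58.7% in ppp1r12a.S, and 23.9 and 14.3% in ppp1r12c.L. Ppp1r15b.L, whose product brings PP1 to the translation factor eIF2alpha, held 3 sites, from 5′ to 3′ at 12.9, 19.1 and 39.1%, with coverages from 403 to 711 reads.

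PP2A had 18 sites in 11 genes and a median of 38.9%, above that of each of the other families of 6 or more sites. Of the 18, 7 were at 50% or more, where 16.3% of all listed sites were. The sites are few, some lie close together in the same gene, and the difference was not tested. The only catalytic site was in ppp2cb.L, at 63.7% (373 of 586 reads, 59.7 to 67.4%), at position 94185630 of chromosome 1L. No site was listed in ppp2ca.S. The A scaffold subunits, on which the holoenzyme is built, had 5 sites with a median of 57.4%. In ppp2r1b.S a pair of sites 4 nt apart had 60.2% (603 of 1002) and 81.4% (719 of 883, 78.7 to 83.9%), and in ppp2r1a.L the 3 sites were at 57.4, 11.0 and 44.0%.

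All 4 B55 genes with a site, ppp2r2a.S, ppp2r2b.L, ppp2r2b.S and ppp2r2d.S, encode the subunits through which PP2A reverses Cdk1 phosphorylation at the end of mitosis, and RefSeq names 5 such genes. Ppp2r2b.L had 68.3% (589 of 863 reads) and, 11 nt further 3′, 16.8% (179 of 1068), with intervals of 65.1 to 71.3% and 14.6 to 19.1%. Its S copy had 36.2% (595 of 1642) and 41.5% (279 of 672). Ppp2r2a.S held 3 sites within 125 nt at 30.1, 25.6 and 18.8%, and ppp2r2d.S a site at 52.8% on only 36 reads (37.0 to 68.0%).

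The B56 subunits, which protect cohesion at centromeres and act in Wnt signalling, had 1 site in each of 4 of their 6 named genes. Ppp2r5c.L had the highest level of the PP2A family, 84.6% (44 of 52 reads, 72.5 to 92.0%), whereas ppp2r5c.S was at 15.6% (7 of 45, 7.75 to 28.8%). Ppp2r5a.S was at 35.5% and ppp2r5e.L at 22.2%.

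Calcineurin, the calcium-activated phosphatase that takes part in the exit from meiosis when the Xenopus egg is activated, had 6 sites in 3 catalytic genes. In ppp3cc.L the levels were 53.7% (94 of 175 reads), 64.5% (98 of 152, 56.6 to 71.6%) and 18.8% (59 of 314). In ppp3cc.S they were 11.3% (7 of 62) and 13.6% (15 of 110). Ppp3cb.L had a site at 20.0% on 45 reads. The levels of the S copy lay below all those of the L copy, and the interval of the highest S site (8.44 to 21.3%) overlapped that of the lowest L site only. No site was listed in ppp3ca.L, ppp3ca.S or the 2 genes of the regulatory subunit ppp3r1.

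PP4 acts in DNA repair and at centrosomes, and its catalytic subunit was covered by 1250 to 2803 reads at its listed sites. Ppp4c.L had 53.6% (670 of 1250 reads, 50.8 to 56.3%) and 31.1% (777 of 2502, 29.3 to 32.9%). Ppp4c.S had 30.01% (611 of 2036, 28.1 to 32.0%) and 14.1% (396 of 2803, 12.9 to 15.5%). In both copies the 5′ site was the higher, and both genes lie on scaffolds not placed on a chromosome.

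The substrate-binding subunits of PP4, ppp4r3a and ppp4r3b, had wide ranges in their L copies. Ppp4r3a.L held the highest site of the PP4 to PP6 group, 86.8% (99 of 114 reads, 79.4 to 91.9%), with 15.0, 28.1 and 49.0% at its other sites. Ppp4r3b.L had 74.4% (87 of 117) and 12.5% (65 of 522), and ppp4r3b.S had 13.4 and 10.7% at sites 3 nt apart. Ppp4r2.S had 3 deeply read sites, at 15.3% (195 of 1273), 47.6% (843 of 1772) and 12.0% (445 of 3713).

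PP6 limits the mitotic kinase Aurora A. Among the genes chosen by name, the sites of its catalytic gene showed the largest difference between neighbours within 50 nt. The gene is named ppp6c.L in the lists, but its 3 sites lie on chromosome 8S, and RefSeq names its PP6 catalytic gene ppp6c.S. At position 39863940 the level was 84.9% (1216 of 1433 reads, 82.9 to 86.6%), whereas 39 nt further 5′ it was 19.2% (272 of 1418, 17.2 to 21.3%), and 1663 nt further 3′ it was 14.2% (69 of 485). It was the only one of 94 phosphatase genes on L or S chromosomes whose suffix went against its chromosome, beside 123 of 5462 genes in the whole list. The regulatory subunit ppp6r3 had 10.1 and 60.6% in L and 27.4% in S. No site was listed in ppp5c.L or ppp5c.S, the chaperone-bound PP5.

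The metal-dependent phosphatases (ppm and pdp), which act mostly without regulatory subunits, had 23 sites in 8 genes. Their median was 17.1%, beside 21.1% over all listed sites, and 14 of the 23 were under 20%, beside 47.2%. The family also held the site with the highest lower bound of all phosphatases. Ppm1f.L, which encodes a phosphatase of the kinase PAK, was at 96.2% (230 of 239 reads, 93.0 to 98.0%) at position 154080733 of chromosome 1L. Ppm1d, the p53-induced Wip1, had 86.4% (261 of 302, 82.1 to 89.8%) and 62.5% (60 of 96) at sites 104 nt apart, and 14.0 and 33.3% at sites 9 nt apart. It is the only phosphatase gene of the list named without .L or .S.

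None of the sites of the family with 900 reads or more was above 26.8%. Ppm1a.S, whose product acts on Smad proteins and stress kinases, had 25.4, 17.7, 10.1 and 15.6% at 948 to 2938 reads. Ppm1b.L had 17.6, 10.7 and 14.9% at 1750 to 1914 reads, with a further site at 24.3% on 74 reads. Ppm1g.S had 11.0% at 3409 reads. The highest value of ppm1g.L, a nuclear phosphatase of the splicing machinery, was 38.8% (249 of 642), at 18 nt from a site at 10.3% (51 of 497). The mitochondrial pdp2.S, which activates pyruvate dehydrogenase, was at 13.3% (6 of 45).

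Receptor tyrosine phosphatases of the LAR type span the cell membrane and act at cell contacts and growing axons. Ptprf.S, the S copy of LAR itself, had more listed sites than any other of the genes chosen by name, 12 over 139479 nt of the genome. Their levels were, from 5′ to 3′, 51.9, 40.6, 20.9, 14.1, 13.6, 26.1, 81.5, 23.7, 22.9, 22.8, 16.6 and 58.9%. The highest rested on 198 of 243 reads (76.1 to 85.9%), and the 11 others lay at or under 58.9%. Ptprf.L had 5 sites at 23.7, 14.5, 12.4, 43.1 and 26.6%, on 38 to 145 reads.

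Of the other receptor types, ptpru.L had 68.4 and 14.7% and ptpru.S 44.4, 49.0, 29.8 and 71.0%, all on fewer than 80 reads. Ptpra, which activates Src kinases, was low in both copies, at 13.5% in L and at 10.3, 19.3 and 21.9% in S. Ptprd.S, another LAR-type receptor, had 47.6% (60 of 126). The receptor phosphatases as a whole had 28 sites in 7 genes with a median of 23.7%.

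Liprins are scaffold proteins, some of which bind LAR-type receptors, and the 4 liprin genes had 20 sites. The sites of ppfia1.L spanned 79.1 percentage points, as did those of ptpn4.L, a tyrosine phosphatase described below. Among the genes chosen by name no other had a wider range than ppfia1.L. Its 6 sites were, from 5′ to 3′, at 28.1, 92.0, 20.9, 34.4, 12.9 and 23.4%, and the highest (482 of 524 reads, 89.3 to 94.0%, position 10106991 of chromosome 4L) lay 193 nt from a site at 20.9% (171 of 820). Ppfia1.S had 27.4, 35.0, 14.1 and 65.1%. The 7 sites of ppfibp1.S stayed between 17.5 and 49.2% on 216 to 801 reads, in the order 24.3, 27.5, 43.9, 49.2, 17.5, 39.8 and 20.8%. Ppfibp2.L was lower, at 15.0, 20.7 and 14.9%.

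Among the non-receptor tyrosine phosphatases (28 sites, 6 genes, median 26.6%), ptpn23 stood out by its number of sites. Its product, HD-PTP, works with the ESCRT machinery that sorts membrane receptors for degradation. Ptpn23.L had 8 sites, at 11.5, 34.5, 56.7, 45.4, 19.8, 72.2, 44.7 and 14.0% from 5′ to 3′, and ptpn23.S had 6, at 31.6, 80.9, 38.2, 50, 11.7 and 11.4%. In both copies the highest sites lay between the first and the last site, and the last site was at 11 to 14%: 14.0% (56 of 400) in L and 11.4% (9 of 79) in S.

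Ptpn4.L reached 90.6% (77 of 85 reads, 82.5 to 95.2%), the highest of these enzymes, at position 47293576 of chromosome 9_10L, and had 11.5, 22.5, 37.3 and 13.3% at the other sites. Ptpn1.S, the PTP1B of the endoplasmic reticulum that acts on the insulin receptor, stayed between 14.0 and 29.0% at 5 sites. Ptpn14.L, which binds YAP, had 22.6, 52.5 and 49.0%, and ptpn9.L was at 12.3%. Of the 24 non-receptor genes named in RefSeq, 5 had a site (20.8%, beside 23.0% of all named genes). Those without a listed site included ptpn6, ptpn11.S, ptpn11b and ptpn12.

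**Figure D3:**
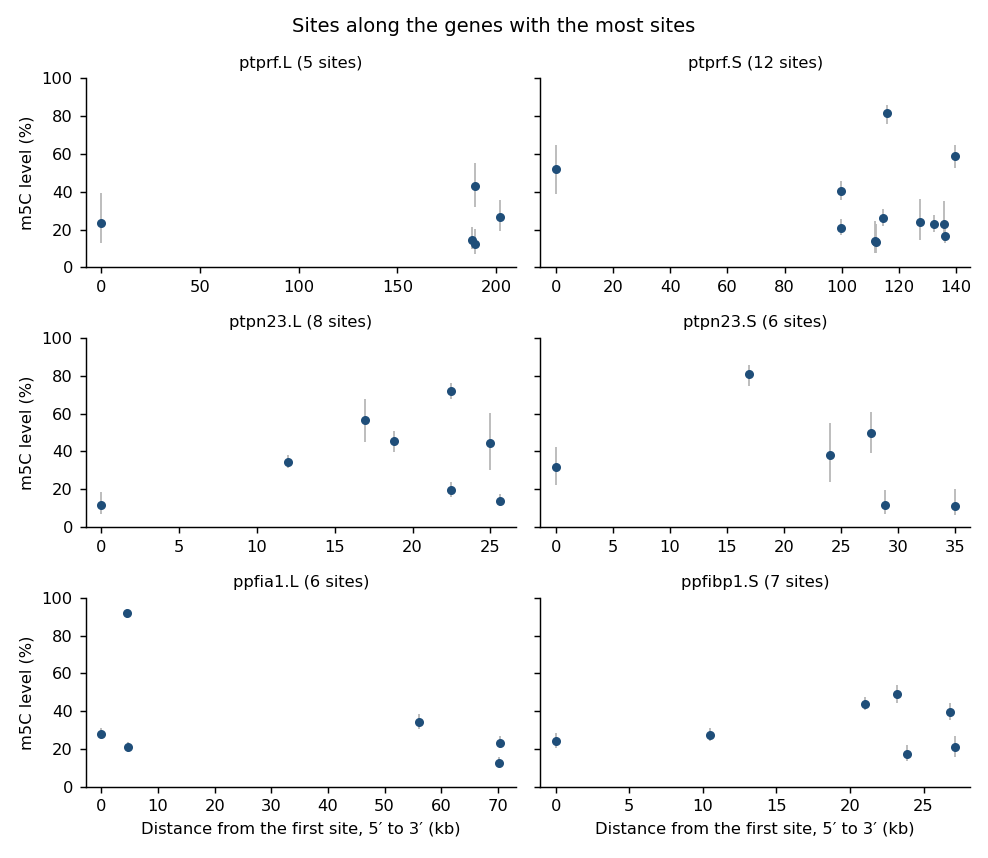
Level (percent, with 95% Wilson intervals as vertical lines) of every listed site in ptprf.S, ptpn23.L, ppfibp1.S, ppfia1.L, ptpn23.S and ptprf.L. The horizontal axis is the distance from the gene's first site in the 5′ to 3′ direction, in kilobases of genome. Ppp1r10.S, which has 6 sites like ppfia1.L and ptpn23.S, is not drawn. Ptprf.S has 12 sites with a peak of 81.5%, ppfia1.L a single site at 92.0% among 5 at or under 34.4%, and both copies of ptpn23 end at 11 to 14%.

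The remaining tyrosine phosphatases (ptp4a and ptpdc1) were low, with a median of 11.5% over 6 sites. The small, membrane-bound ptp4a1.L was at 12.8% (238 of 1863 reads), and ptp4a2.S had 55.2% (58 of 105, 45.7 to 64.4%), their highest value, and 10.5% (185 of 1764). Ptp4a3.L had 11.6 and 10%, and ptpdc1.L was at 11.4%.

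The dual-specificity phosphatases switch off MAP kinases, act on other proteins or, in the case of dusp11, remove phosphates from the 5′ end of RNA. Only 9 sites in 6 genes were listed, at 27 to 823 reads. Of the 9, 3 were at 50% or more, where 16.3% of all listed sites were, and 9 sites are too few to compare. Dusp4.S, a nuclear MAP kinase phosphatase, had 96.3% on 27 reads (26 C reads, 81.7 to 99.3%), the highest level of all phosphatase sites on the smallest coverage, and 40.5% (32 of 79) at a site 14822 nt further 5′. Dusp23.L was at 94.5% (52 of 55, 85.1 to 98.1%). Dusp16.S, which acts on JNK, had 15.0, 63.5 and 12.1%, dusp5.S 21.3%, dusp11.L 11.4%, and the best-covered, dusp1.S, 10.2% (84 of 823). The slingshot phosphatase ssh2.L, which activates the actin-severing cofilin, was at 14.6% (31 of 213, 10.4 to 19.9%).

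Eya3, a tyrosine phosphatase and transcriptional coactivator, had 52.6% (20 of 38 reads, 37.3 to 67.5%) and 15.4% (40 of 260) in L and 12.2% (6 of 49) in S. The acid phosphatases were represented by the lysosomal acp2.S, at 15.8% (138 of 876), and by acp5.S, the tartrate-resistant enzyme. Acp5.S had 20.4, 64.4, 29.1 and 16.7%, of which the highest rested on 168 of 261 reads (58.4 to 69.9%).

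Myotubularins remove the 3-phosphate from the phosphoinositides of endosomes, and they had 25 sites in 7 genes. Their median was 20.9%, beside 21.1% over all listed sites. A level of 50% or more was found at 2 of the 25, where 16.3% of all sites reached it. The highest was in mtmr14.S, 67.3% (37 of 55 reads, 54.1 to 78.2%), beside 20.9 and 36.6% at its other sites. Mtm1.S, the gene of X-linked myotubular myopathy in human, had 5 sites between 11.7 and 28.7%, among them adjacent cytosines at 28.7% (33 of 115) and 12.9% (15 of 116). Mtmr1.L had 10, 42.3, 10.2, 43.2 and 33.3%, and mtmr1.S 27.6, 24.6, 15.6 and 16.5%. Mtmr2.L had 5 sites between 10.4 and 39.8%, on 40 to 88 reads. Mtmr10, which lacks catalytic activity, had 53.1 and 13.0% in L and 42.6% in S.

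The inositol phosphatases had a median of 13.0% over 14 sites, and 9 of these were under 20%, where 47.2% of all listed sites were. Inpp5a, which ends the calcium signal by removing a phosphate from inositol trisphosphate, held 2 of the 3 sites at 50% or more, 1 in each copy. Inpp5a.1.L was at 86.1% (31 of 36 reads, 71.3 to 93.9%) and inpp5a.1.S had 24.7, 79.7 (114 of 143, 72.4 to 85.5%) and 12.2%, the last pair 243 nt apart. Inpp5f.L had 4 sites between 10 and 16.4% on 110 to 758 reads, inpp4a.S had 11.3 and 12.5%, and inpp5b.L was at 13.4%. Ocrl.L, the gene mutated in Lowe syndrome in human, had 32.5, 12.2 and 51.4%, on 35 to 49 reads. Of the SAC-domain enzymes, sacm1l.L, which acts on PI4P at the endoplasmic reticulum, was at 22.1% (19 of 86, 14.6 to 31.9%) and fig4.L, which acts on PI(3,5)P2, at 10.9% (7 of 64). No site was listed in the synaptojanins synj1 and synj2.

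Phosphatase genes had 2.51 sites on average, beside 2.27 over all genes, and 40 of the 103 had a single site (38.8%, beside 45.4%). At least 5 sites were found in 14 of the 103 genes, where 9.73% of all genes had as many. Ptprf.S (12), ptpn23.L (8) and ppfibp1.S (7) led, followed by ppfia1.L, ppp1r10.S and ptpn23.S with 6 each. Ppp1r10.S encodes PNUTS, which holds PP1 in the nucleus at sites of transcription, and its sites were at 48.6, 37.1, 33.3, 19.6, 20.0 and 11.7% on 35 to 69 reads.

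Levels within 1 gene differed widely. Of the 63 genes with at least 2 sites, 49 had a highest and a lowest site whose Wilson intervals did not overlap, or 77.8%, where the figure over all genes was 69.3%. Phosphatase genes also had more sites per gene, and the part of this in the difference was not tested. The median range within these genes was 31.7 percentage points (26.5 over all genes), and 24 of them, or 38.1%, held both a site under 20% and a site of at least 50%, where 32.3% of all genes with at least 2 sites did.

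Neighbouring sites close together differed in level about as much as those further apart. Of 156 pairs of neighbouring sites in 1 gene, 17 lay within 50 nt (10.9%, beside 10.5% of all neighbours in the list), in 16 genes. The median difference in level was 15.8 percentage points in these 17 and 15.8 in the 139 pairs further apart. No test was made, and distances were taken along the genome, so that pairs far apart there may be closer in the mRNA. Within 50 nt, ppp6c.L differed by 65.7 points, ptpn23.L by 52.4 points over 15 nt (79 of 400 and 296 of 410 reads) and ppp2r2b.L by 51.5 points over 11 nt. The smallest difference was in ppp1r10.S, 0.357 points over 17 nt. Adjacent cytosines were listed in ppm1b.L, mtm1.S and ppp1r10.S.

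Of 81 phosphatase names with .L or .S, 21 had sites in both copies (25.9%, beside 22.0% of all names), 35 in L only and 25 in S only. The whole list also held more L genes than S genes with sites, 3355 and 2405. The 21 names with sites in both copies held 123 of the phosphatase sites. Without a genome of the build, sites of the copies could not be aligned, so the levels of each copy are set side by side by their ranges. The authors kept reads with 1 place in the converted genome and mapped the rest to transcripts, and how such a read was shared between similar copies is uncertain here, as are the values of a pair to that extent. The highest sites of the copies had intervals that did not overlap in 13 of the 21. This share lay close to the 65.1% over all names with sites in both copies. Among the 13, L was the higher in 9 and S in 4. No such split over the whole list is given, so these counts are not a result about phosphatases. Over all phosphatase sites the median level was 22.6% in L and 24.3% in S, beside 20.9% and 21.5% over the whole list.

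L was the higher by far in ppp2r5c (84.6% against 15.6%), in ppp4r3b (12.5 to 74.4% against 10.7 to 13.4%) and in ppp3cc (18.8 to 64.5% against 11.3 to 13.6%). It was also the higher, by the highest sites, in eya3 (15.4 to 52.6% against 12.2%), ppp4c (31.1 to 53.6% against 14.1 to 30.01%), ppp6r3 (10.1 to 60.6% against 27.4%), ppfia1 (12.9 to 92.0% against 14.1 to 65.1%), ppp2r2b (16.8 to 68.3% against 36.2 to 41.5%) and ppm1g (10.2 to 38.8% against 11.0 to 26.8%). By the highest sites, S was the higher in ptprf (13.6 to 81.5% against 12.4 to 43.1%), ppp1r10 (11.7 to 48.6% against 17.7 to 21.1%), ppp1r12a (58.7% against 29.1 to 43.1%) and ppp1r14a (42.6% against 21.9%), whose product CPI-17 inhibits PP1 at myosin. The medians went the other way in ptprf (23.7% in L, 23.3% in S), ppfia1 (25.7 and 31.2%) and ppm1g (11.3 and 17.1%). In the rest of these names they went the same way. The copies often had unequal numbers of sites, as in ptprf (5 in L, 12 in S), and the part of this was not tested.

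In the other 8 names the intervals of the highest sites overlapped. These were inpp5a.1 (86.1% in L, 12.2 to 79.7% in S), ptpn23 (11.5 to 72.2% and 11.4 to 80.9%), ptpru (14.7 to 68.4% and 29.8 to 71.0%), mtmr10 (13.0 to 53.1% and 42.6%), mtmr1 (10 to 43.2% and 15.6 to 27.6%), ppp4r2 (22.4 to 36.8% and 12.0 to 47.6%), ppm1a (28.0% and 10.1 to 25.4%) and ptpra (13.5% and 10.3 to 21.9%). Overlap of the intervals does not show that the levels were alike.

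Ppp1r10 was the only name in which a distance between sites recurred in both copies. A pair of sites 17 nt apart had 21.1% and 17.7% in ppp1r10.L (28 of 133 and 17 of 96 reads) and 19.6% and 20.0% in ppp1r10.S (11 of 56 and 9 of 45), from 5′ to 3′, and the intervals of the copies overlapped at both. Such a shared distance was found in 1 of the 12 phosphatase names with at least 2 sites in each copy, and in 3.09% of 453 such names in the whole list. Whether these are matching cytosines could not be read from the positions alone.

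**Figure D4:**
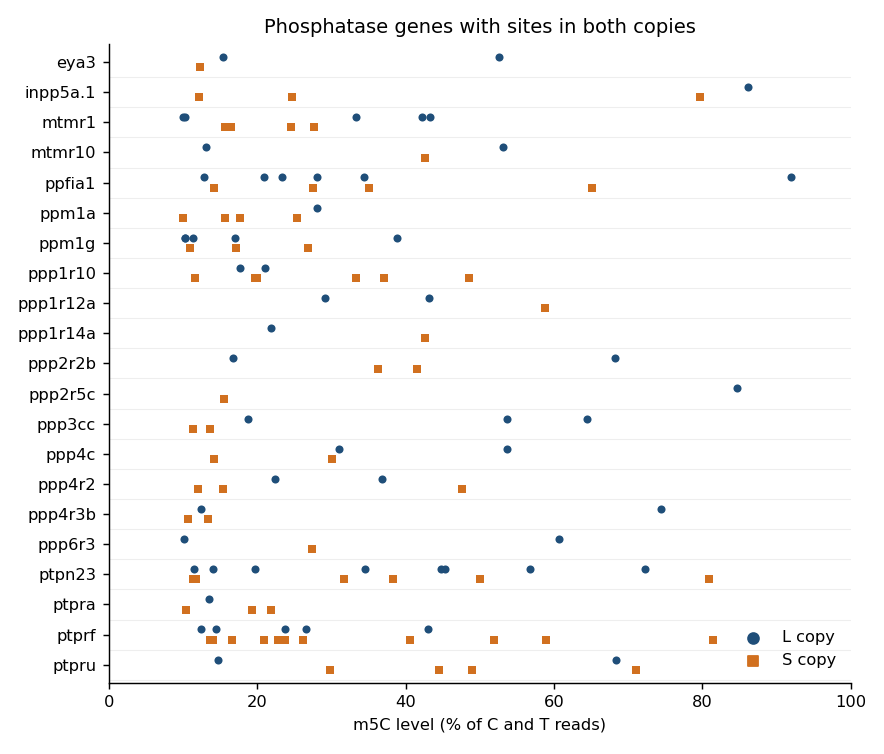
Level (percent) of each stage 0 site in the 21 phosphatase names with sites in both the L copy (blue circles) and the S copy (orange squares), 1 point per site. The copies lie apart in ppp2r5c (84.6% in L, 15.6% in S) and overlap along the whole range in ptpn23.

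Level and coverage were barely related across the phosphatase sites together, with a Spearman coefficient of -0.084 (n = 259 sites, all from the same 2 libraries), beside -0.031 over all sites. It was 0.039 for regulatory and scaffold proteins and -0.166 for the other genes. In these others the median level was 31.1% under 50 reads (n = 28) and 16.7% at 500 reads or more (n = 33). For regulatory and scaffold proteins it was 24.5% (n = 12) and 29.1% (n = 33). Over all phosphatase sites the median level was 27.1% under 50 reads (n = 40), 23.7% from 50 to 100 reads (n = 65), 22.5% from 100 to 500 (n = 88) and 23.8% at 500 reads or more (n = 66). The 3 deepest sites, in ppp1r3c.2.L, ppp1ca.L and ppp1cc.S, were all under 20%, whereas the deepest site above 80%, in ppp6c.L, had 1433 reads.

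**Figure D5:**
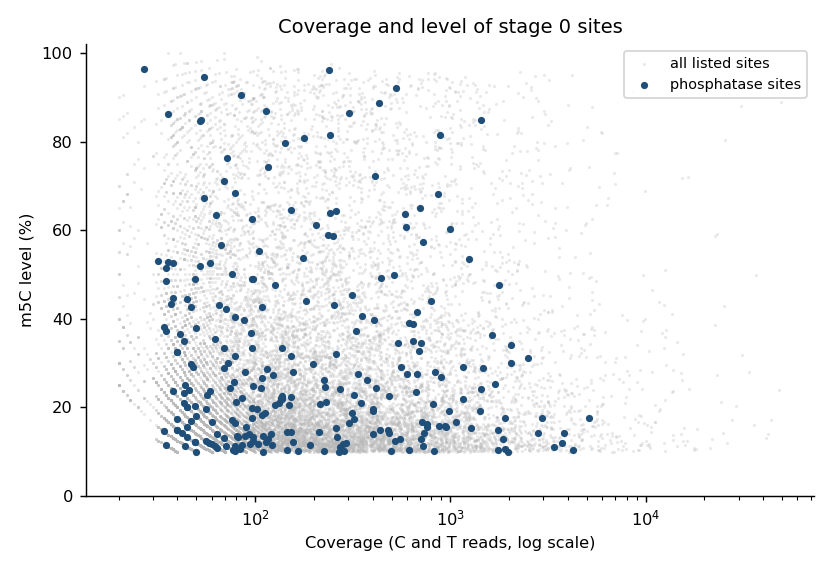
Level (percent) against coverage (C and T reads, log axis) for the 259 phosphatase sites (blue) over all 16233 stage 0 sites (grey). The phosphatase sites run from 27 to 5107 reads and 10 to 96.3%, and the edge at 10% is the minimum of the list.

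At stage 25 no phosphatase site was listed, and none of the 36 sites listed at both stages lay in a phosphatase gene, so no site could be tested between the stages. At the share of stage 0, 0.718 of the 45 sites would fall in these genes, so that the absence of any is not a result about phosphatases. Loss of the mRNA, loss of its methylation and a lower depth at stage 25 cannot be told apart in these lists.

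Phosphatases outside these names were listed as well. Of 41 further names, 16 had a site, 57 sites in 22 genes. Their median was 27.5% (10.3 to 94.0%), with 21 sites under 20% and 14 at 50% or more. Over all listed sites the median was 21.1%, with 47.2% under 20% and 16.3% at 50% or more. Counted by RefSeq names, 19 of 65 of these genes had a site (29.2%, beside 23.0% of all such genes), though not every gene with a site was matched by name. Ctdnep1.S, a phosphatase of the nuclear membrane that acts on lipin, had 94.0% (907 of 965 reads) and 89.1% (846 of 950) at adjacent cytosines, higher than at the 3 adjacent pairs of the phosphatase genes above. Sbf2.L, a myotubularin relative without activity, had 14 sites between 10.3 and 85.0%. Styx, a pseudophosphatase, had 71.4% in L (435 of 609) and 67.1% in S (237 of 353). At stage 25 no site of these 41 names was listed. With only 45 sites in that whole list, the absence is not a result about these genes.

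Regulators and partners of PP2A and PP1 outside these names had sites under 14 of 23 names, 34 sites in 16 genes. Their median was 27.4% (10.1 to 90.9%), beside 21.1% over all listed sites. Of the 34 sites, 16 were under 20% and 8 at 50% or more, beside 47.2% and 16.3% of all listed sites. Counted by RefSeq names, 9 of 24 of these genes had a site (37.5%, beside 23.0% of all such genes). The 23 names hold older and newer names of the same gene, such as kiaa1524 and cip2a. Not all 16 genes with sites were matched in RefSeq, so both counts by name are uncertain. The Greatwall pathway, in which the kinase MASTL phosphorylates ARPP19 to block PP2A-B55 during mitosis, had sites in the genes of both. Ensa, another of the 23 names, had no listed site. Mastl.L had 6 sites at 27.4, 47.2, 12.5, 13.8, 31.4 and 77.9%, mastl.S a site at 41.9%, and arpp19.L 65.0% (372 of 572 reads) and 18.1% (138 of 763). Of the PP2A inhibitors and partners, set.S had a single site at 90.9% (418 of 460), sgol1.L, which keeps PP2A at centromeres, 74.3% (511 of 688) and 72.3% (1398 of 1933), and bod1.L, an inhibitor of PP2A-B56, 86.8% (1284 of 1480) and 10.2% (100 of 984). Others were low: the striatin strn.S, a PP2A subunit of the STRIPAK complex, was at 11.0% (47 of 428), igbp1.L, which binds free catalytic subunits, at 11.6% (22 of 189), the methylesterase ppme1.S at 13.2% (10 of 76), and kiaa1524.L, the inhibitor CIP2A, at 17.4 and 10.1%. The name strn3.S covered sites on chromosome 8S, at 12.0 and 33.1%, and others on chromosome 8L, at 16.3 and 17.3%. Rif1.S, which brings PP1 to replication origins, had 7 sites between 10.7 and 78.2%. No site of these 23 names was listed at stage 25. The whole stage 25 list held only 45 sites, so this absence is not a result about these genes.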

How the data were processed

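RNA bisulfite sequencing of polyadenylated RNA was analysed for 4 libraries, 2 at stage 0 and 2 at stage 25. Per the submitters' processing notes, reads were handled with bcl2fastq 2.17, cutadapt, Trimmomatic, HISAT2 2.10 and SAMtools, and the methods give X. laevis v9.2 as the genome. Reads without a unique place in the converted genome were mapped to the converted transcripts with Bowtie2. The authors called cytosines over set minimums (coverage, level, C reads and a signal ratio), removed reads with many unconverted C bases, which also removes reads rich in true m5C, and combined both replicates into 1 list per stage. Coverage was deposited as a count of reads with C or T at the site, without normalization. Levels were deposited as a fraction and are printed in percent. A p-value per call, combined by the authors, was also deposited (at most 4.77e-06 at the phosphatase sites) and served no comparison. Library totals are not in the lists, so depth is given per site.

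Coverage times level was a whole number of C reads at every site, within 0.0001 reads, and these counts were used. Genes were counted by the identifier of the lists and grouped by name. The members, families and related lists were chosen with earlier results of these data known. The planned Fisher's exact test of sites shared by the stages had no phosphatase site to test. Wilson intervals (95%) were computed with scipy 1.17.1 and tables with pandas 2.3.3 under Python 3.11.15; the intervals were tested on simulated reads. Of the 103 gene names, 96 matched a symbol or synonym of the RefSeq assembly Xenopus_laevis_v10.1, used for names alone. Positions are as deposited on v9.2, and their base, 0 or 1, is not stated in what was read here. Sequences, exons and UTRs were not analysed here, and an item withheld for evaluation is not reported here. Named with full values were the genes with the most sites, the 10 highest lower bounds, the 3 deepest sites, the catalytic subunits, each family's highest site, and every name with sites in both copies by its range. The alternatives were coverage of at least 50 or 100 reads, level of at least 20% or 30%, assembled chromosomes only, regulatory and scaffold proteins left out, and other summaries of the level.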

Additional observations from a re-analysis of the deposited data

How the results depend on the processing

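Of 51 values recomputed under the alternatives, 35 stayed within 1.5 times the count or within the interval of the median or of the share. The number of stage 0 sites, 259, fell to 154 at a coverage of at least 100 reads, 153 and 98 at a level of at least 20% and 30%, and 162 without regulatory and scaffold proteins. The 103 genes fell to 62 at a level of at least 30% and to 61 without regulatory and scaffold proteins. The median level of 23.7% became 37.1% and 49.1% at a level of at least 20% and 30%, where all sites gave 36.2% and 49.0%, and the mean over sites was 31.3%, beside 29.4% over all sites. The 21 names with sites in both copies fell to 13 at 100 reads and 10 at a level of 30%, and the mean of 2.51 sites per gene to 1.58 at 30%. The 14 genes with at least 5 sites fell to 9 and 5 at 50 and 100 reads and to 4 and 1 at a level of 20% and 30%. The falls in number follow from there being fewer sites. Of 75 family counts 35 moved, each downwards. The counts of 0 at stage 25 and among shared sites did not change under the alternatives run on them. No paired analysis was possible because the deposited lists carry a single merged value for each site and stage, and for that reason no replicate could be left out. A level resting on fewer than 50 reads, as at 40 of the 259 sites, has a wide counting interval, and unlisted cytosines set no upper limit.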
